A study of Mus musculus with 6 samples.

Results

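Semaphorins, Slits, netrins and ephrins and their receptors were followed in RNA-seq of the mouse foregut, the front part of the gut tube that gives rise to esophagus, trachea, lung, stomach and liver. Members were taken by gene name from the deposited expression table, and 71 of its 22564 features matched. They were 35 ligands (20 semaphorins, 3 Slits, 4 netrins and 8 ephrins), 35 receptors (9 plexins, 2 neuropilins, 4 Robo and 4 Unc5 receptors, Dcc, Neo1, 9 EphA and 5 EphB receptors) and 1 antisense RNA, Plxna4os1, which matched the plexin name pattern but encodes no plexin. Each library was made from the foregut of a single E9.5 embryo on a mixed strain background. There were 3 double homozygous mutants, Gli2-/-;Gli3-/-, and 3 double heterozygous controls, Gli2+/-;Gli3+/-, so that the controls also carry 1 mutant allele of each gene. The paper's methods and its reporting summary call the controls litter mates. The summary also states that control and mutant embryos came from separate litters. Its wording leaves unclear whether a control and a mutant shared a litter. Controls 1, 2 and 3 were at 19, 24 and 21 somites, mutants 1, 2 and 3 at 19, 22 and 21 somites. Gli2 and Gli3 are transcription factors at the end of the Hedgehog (HH) pathway, and the comparison asks which transcripts depend on them.

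These families were first known for steering growing axons. Semaphorins bind plexins, with neuropilins as co-receptors for the secreted class, Slits bind Robo receptors, netrins bind Dcc, Neo1 and Unc5 receptors, and ephrins bind Eph receptors on a touching cell, with signals passing both ways. Binding mostly acts on the cytoskeleton and adhesion, so that a cell turns, retracts or sorts away from its neighbour. In the embryonic trunk the same proteins also guide neural crest cells and blood vessels and set tissue boundaries, and in the lung and gut netrins, Slits and semaphorins act between epithelium and mesenchyme.

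A foregut piece holds endoderm and mesoderm together, as well as vessels and neighbouring tissue, and in such bulk RNA fewer cells of a type and less RNA per cell cannot be told apart. The values are TPM, the length-corrected share of a transcript in its library on a common total, and the number of reads behind them is unknown. Markers of foregut endoderm and of splanchnic mesoderm, the mesoderm around the gut, were present in every library, at 645 to 993 TPM summed over 8 endoderm genes and 452 to 801 TPM summed over 8 mesoderm genes. Of the mesoderm markers, 7 of 8 were lower in every mutant than in every control. The exception, Vim, was higher in every mutant, at 276 to 363 TPM against 179 to 241 TPM in the controls. Among the lower ones, Osr1, Tbx5, Foxf1 and Foxf2 are genes that the paper reports as reduced in these mutants. Endothelium markers summed to 143 to 206 TPM in the controls and 241 to 345 TPM in the mutants, with 6 of 12 higher in every mutant. Neural tube markers stood at 70.9 TPM in mutant 2 and at 3.36 to 7.65 TPM in the other 5 libraries, and somite markers at 11.6 to 29.2 TPM in the controls and 42.9 to 80.3 TPM in the mutants. Mesothelium markers stood at 32.65 to 50.04 TPM in the controls and 116 to 136 TPM in the mutants (8 of 9 higher in every mutant), while the sums of cardiomyocyte and of red cell markers overlapped between the groups. No listed marker was at 0 in every library. Features named by a database accession took 23.5% to 43.9% of the TPM of a library. As a check of the pathway, the HH target Gli1 fell from 37.8, 21.6 and 28.6 TPM in the controls to 4.49, 2.30 and 1.44 TPM in the mutants (log2 fold change -3.07, adjusted p = 0.0722 in limma), whereas Gli2 and Gli3 transcripts were present in all mutants, and a value summed over a gene does not show whether its mutated part is missing.

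The guidance genes were widely expressed in this tissue. Of the 71 members 65 were above 0 in all 6 libraries, and their summed level was 1222, 1331 and 1343 TPM in controls 1, 2 and 3 and 1159, 1359 and 1346 TPM in mutants 1, 2 and 3. The groups overlapped in this sum, and so they did in the sum of the ligands (474 to 488 TPM in the controls and 454 to 550 TPM in the mutants) and in that of the receptors (734 to 868 TPM and 704 to 844 TPM). The netrin and repulsive guidance molecule receptor Neo1 was the most abundant, at a mean of 153 TPM over the 6 libraries, followed by the ephrin Efnb2 at 93.3 TPM and the Eph receptor Epha7 at 70.6 TPM. Together these 3 genes made up 24.5% of the members' TPM. The next in order were Nrp2 (65.4 TPM), Sema6a (61.4 TPM), Robo1 (59.1 TPM), Ephb4 (58.4 TPM) and Efna4 (55.4 TPM). No neighbours in the order of means were separated by their ranges over the 6 libraries, so the order of any 2 adjacent genes is not resolved. In all, 14 members had a mean of 30 to 100 TPM, 15 a mean of 10 to 30 TPM and 23 a mean of 1 to 10 TPM.

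**Figure D1:**
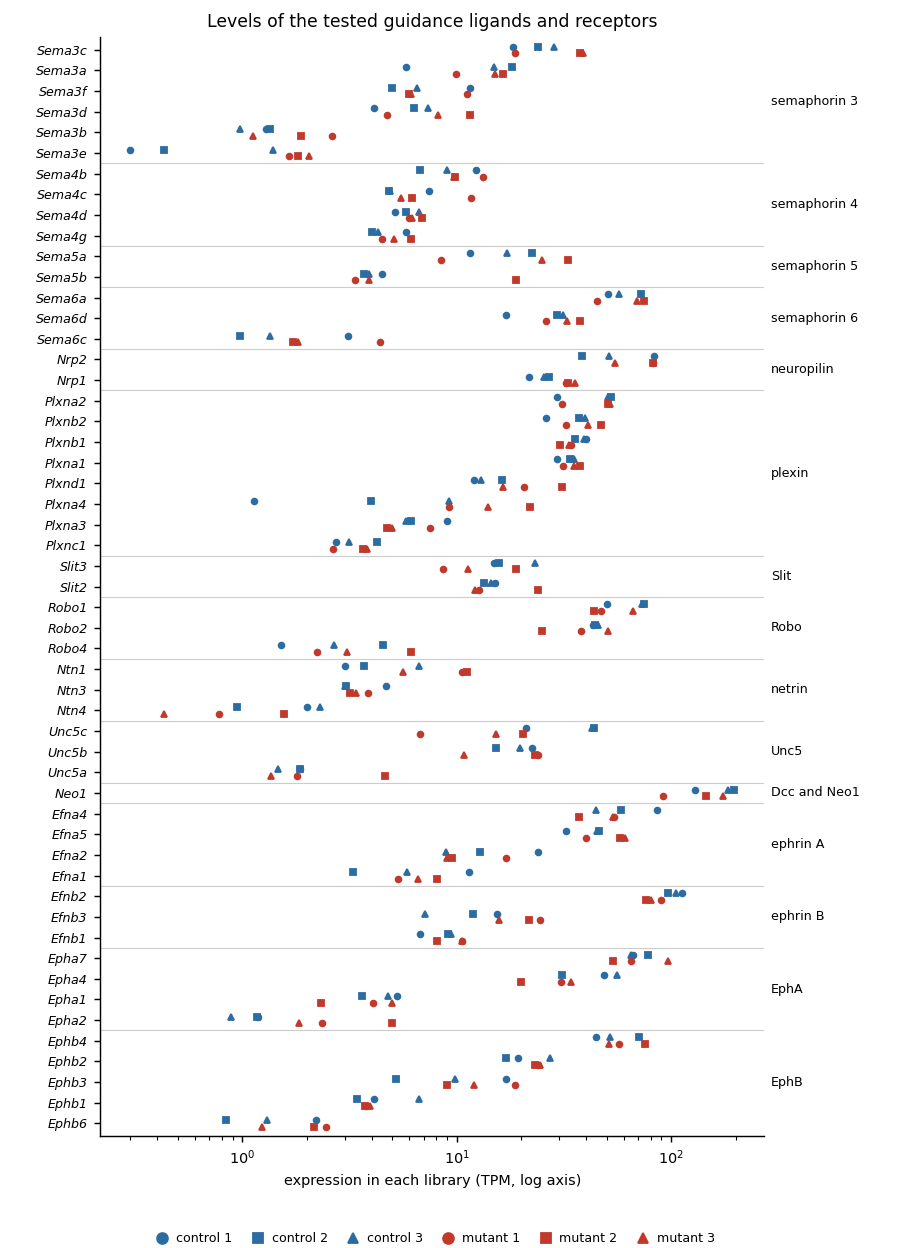
Expression (TPM, log axis) of the 53 tested guidance ligands and receptors in each library, grouped by family and ordered by mean within it, with controls in blue, mutants in red and a marker shape for each library number. Neo1 lies furthest right at 91.2 to 196 TPM, and the red and blue points overlap for all but 9 genes.

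The 18 members below a mean of 1 TPM were not tested. They were Plxna4os1, the semaphorins Sema3g, Sema4a, Sema4f, Sema6b and Sema7a, the ligands Slit1, Ntn5 and Efna3, and the receptors Plxnb3, Robo3, Unc5d, Dcc, Epha3, Epha5, Epha6, Epha8 and Epha10. Dcc, the attractive netrin receptor of commissural axons, stood at 0.38, 0.51 and 0.35 TPM in the controls and at 0.38, 1.98 and 0.83 TPM in the mutants, and the value in mutant 2 was the highest of any untested member in any library. Neo1, a relative of Dcc, was at 91.2 TPM or more in every library. Epha8 was listed at 0 in all 3 mutants and at 0.06 to 0.40 TPM in the controls.

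Without the replicate block described below, few genes of the whole table were called, and none of them was a guidance gene. In the limma comparison of 3 mutants with 3 controls on log2(TPM + 1), 0 members were called lower and 0 higher with an adjusted p no higher than 0.1 and a log2 fold change of 1 or more in size, beside 0.0274% and 0.0137% of all 14606 genes tested (0.0411% in either direction). The HH response genes Ptch1 and Foxf1, lower in every mutant, were not called either (limma adjusted p = 0.592 and 0.523). A missing call therefore does not show that a gene was unchanged. When the replicate number shared by the groups was added as a block, 1 member, Unc5c, was called lower and 0 higher, beside 0.11% and 0.0959% of all genes (0.205% in either direction). Before adjustment, 6 of 53 tested members (11.3%) had p under 0.05 in limma, 1 lower (Unc5c) and 5 higher (Plxna4, Efnb3, Epha2, Ntn1 and Plxnd1), beside 1.01% lower and 3.07% higher of all genes (4.09% together). With the block these were 10 members (18.9%), 4 lower (Unc5c, Epha4, Efnb2 and Neo1) and 6 higher (Efnb3, Plxna4, Plxnd1, Nrp1, Efna5 and Epha2), beside 1.86% and 7.94% of all genes (9.79% together). With median-of-ratios scaling, quantile scaling or rescaling without accession-named features, 3 members were lower and 1 higher at that limit without the block, and without mutant 2 these were 2 and 0. The share of all genes at that limit was not counted for these alternatives.

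The groups did not overlap for 9 of the 53 members (17.0%), beside 8.36% of all genes. Overlap was judged on the deposited TPM here and below. It was not recounted with the other scalings, which can join or separate groups that lie close. Unc5c, Efnb2 and Plxnb1 were lower in every mutant than in every control (1.68% of all genes were), and Plxna4, Efnb3, Epha2, Plxnd1, Sema3e and Nrp1 were higher (6.68% of all genes). Sema3e passed the filter of 1 TPM only through its level in the mutants, so its place in this count depends on the filter. The log2 fold change reached 1 in size in 1 member downward (Unc5c) and 1 upward (Plxna4), against 1% and 1.89% of all genes. The median log2 fold change was 0.14 for the members and 0.11 for all genes. Of the members 16 of 53 had a log2 fold change below 0, a share equal to the 30.2% of all genes. Scaling by median-of-ratios moved the median of all genes to -0.01 and that of the members to 0.01, so that small changes in one direction follow the scaling of the libraries. The mutant was above the control of the same number in all 3 comparisons for 17 members (32.1%, against 25.7% of all genes) and below it for 7 (13.2%, against 6.37%), the latter being Efnb2, Epha4, Neo1, Plxna3, Plxnb1, Robo1 and Unc5c. Both libraries numbered 1, from the 19-somite embryos, lay below the other 4 for 13 members (24.5%, against 20.4% of all genes) and above them for 9 (17.0%, against 23.1%).

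**Figure D2:**
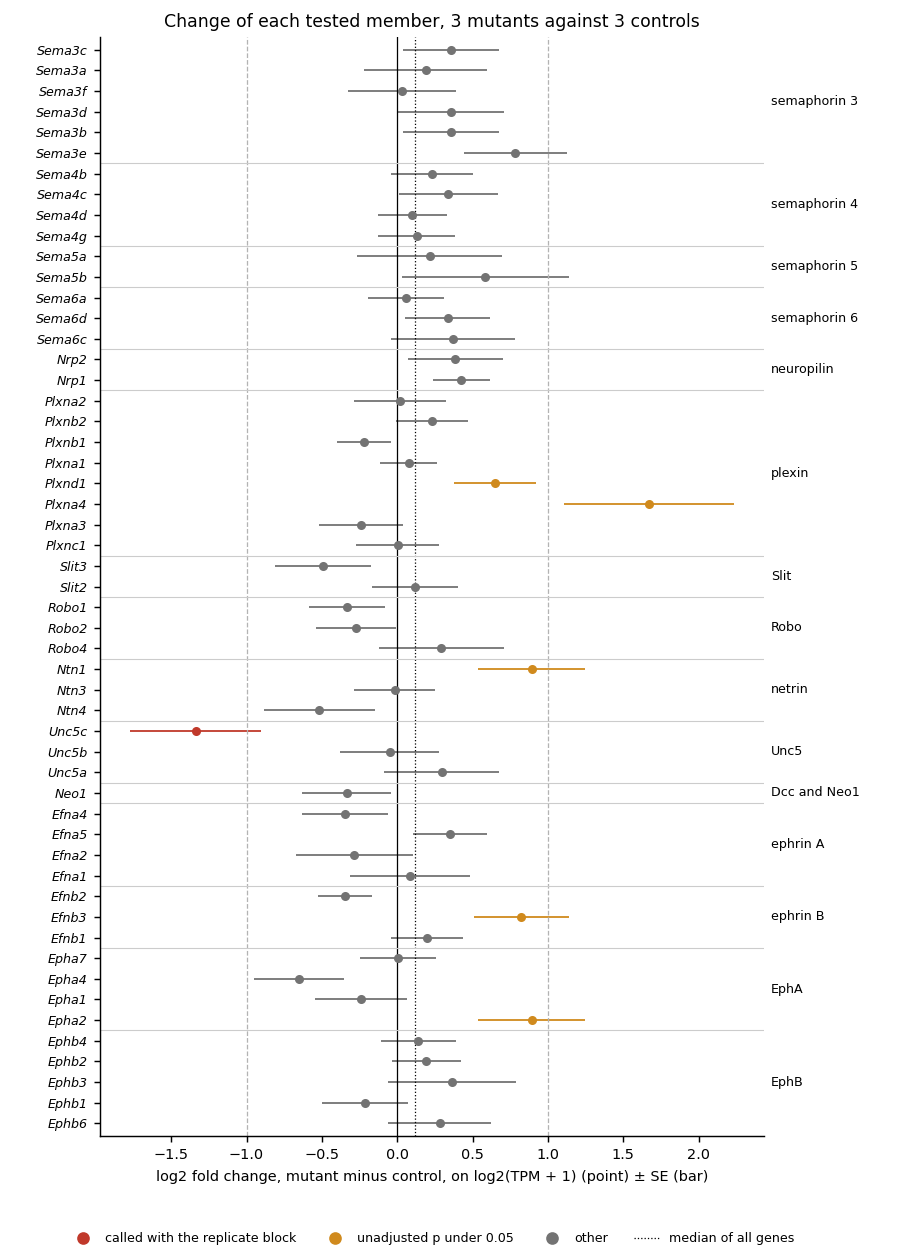
Log2 fold change of each tested member, mutant minus control on log2(TPM + 1), as a point with its standard error from limma as a bar, grouped by family, with dashed lines at a log2 fold change of 1 in size and a dotted line at 0.11, the median of all genes. Unc5c at -1.34 and Plxna4 at 1.67 are the members beyond the dashed lines, and all 15 tested semaphorins lie right of 0, as 12 of them did with the other scalings.

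Among the receptors, Unc5c had the largest difference downward. Unc5c (chromosome 3, 141465216 to 141834924, mm10) encodes a netrin receptor that mediates repulsion. It stood at 21.0, 43.7 and 42.6 TPM in the controls, by number, and at 6.70, 20.4 and 15.2 TPM in the mutants. Every mutant lay below every control, and mutant 2 came close to control 1. The mean was 35.8 ± 12.8 TPM in the controls and 14.1 ± 6.9 TPM in the mutants (SD, n = 3), a 2.54-fold lower mean. The log2 fold change was -1.34 ± 0.435 (SE), and the adjusted p of 0.97 in limma did not pass. Within a library number, the mutant had 0.319, 0.466 and 0.356 of the level of its control, and with the replicate block Unc5c passed (limma adjusted p = 0.0679). Removal of 1 factor of unwanted variation gave a call (limma adjusted p = 0.0403). That factor came from the residuals of the genotype fit, so it could lower the error but not move the fold change. With somite number as a covariate or with array weights Unc5c was not called (limma adjusted p = 0.35 and 0.605). The call with the block was lost when both libraries numbered 1 (adjusted p = 0.277) or both numbered 2 (0.252) were left out, and was kept without those numbered 3 (0.00715). These fits called 3, 0 and 436 of all genes, where the block over all libraries called 30. The log2 fold change ranged from -1.67 to -0.91 over all alternatives. The exons of Unc5c share 118 bases with the opposite-strand gene Gm15688, and the libraries do not mark strand. The sum of the splanchnic mesoderm markers was lower in the same libraries, and its part in the Unc5c difference was not tested. It was 608 to 801 TPM in the controls and 452 to 468 TPM in the mutants.

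The other Unc5 genes did not share this difference in level. Unc5b, a receptor also known from vessels, stood at 22.4, 15.2 and 19.8 TPM in the controls and 23.9, 23.1 and 10.9 TPM in the mutants, and Unc5a at 1.47 to 1.86 TPM in the controls and 1.79, 4.63 and 1.36 TPM in the mutants. For both the groups overlapped, and the log2 fold changes were -0.05 ± 0.33 and 0.29 ± 0.38. The sum of the Unc5 family was 45.7, 61.5 and 65.2 TPM in the controls and 32.9, 49.0 and 27.8 TPM in the mutants, the lowest ratio of any family (0.637). Unc5c made up 45.9% to 71.2% of that sum in controls and 20.3% to 54.5% in mutants. The co-acting netrin receptor Neo1 stood at 129, 196 and 183 TPM in the controls and at 91.2, 145 and 174 TPM in the mutants. Each mutant lay below the control of its number (0.709, 0.736 and 0.948 of it), while the groups overlapped, and the difference did not pass (log2 fold change -0.34 ± 0.29, block adjusted p = 0.478).

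Of the ligands of these receptors, netrin-1 (Ntn1, chromosome 11, 68209364 to 68400823) stood at 3.02, 3.69 and 6.65 TPM in the controls and 10.5, 11.1 and 5.60 TPM in the mutants. Mutants 1 and 2 were above every control, and mutant 3 was below control 3. The mean was 4.45 ± 1.93 and 9.08 ± 3.03 TPM, with a log2 fold change of 0.89 ± 0.36 (unadjusted p = 0.0375 in limma, adjusted p = 0.999). Ntn3 stood at 3.02 to 4.66 TPM in the controls and 3.18 to 3.85 TPM in the mutants. Ntn4, a basement membrane netrin, had 1.99, 0.94 and 2.29 TPM in the controls and 0.78, 1.56 and 0.43 TPM in the mutants, overlapping groups with a log2 fold change of -0.52 ± 0.37. The netrin sum was 7.85 to 11.96 TPM in the controls and 9.48 to 15.9 TPM in the mutants.

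**Figure D3:**
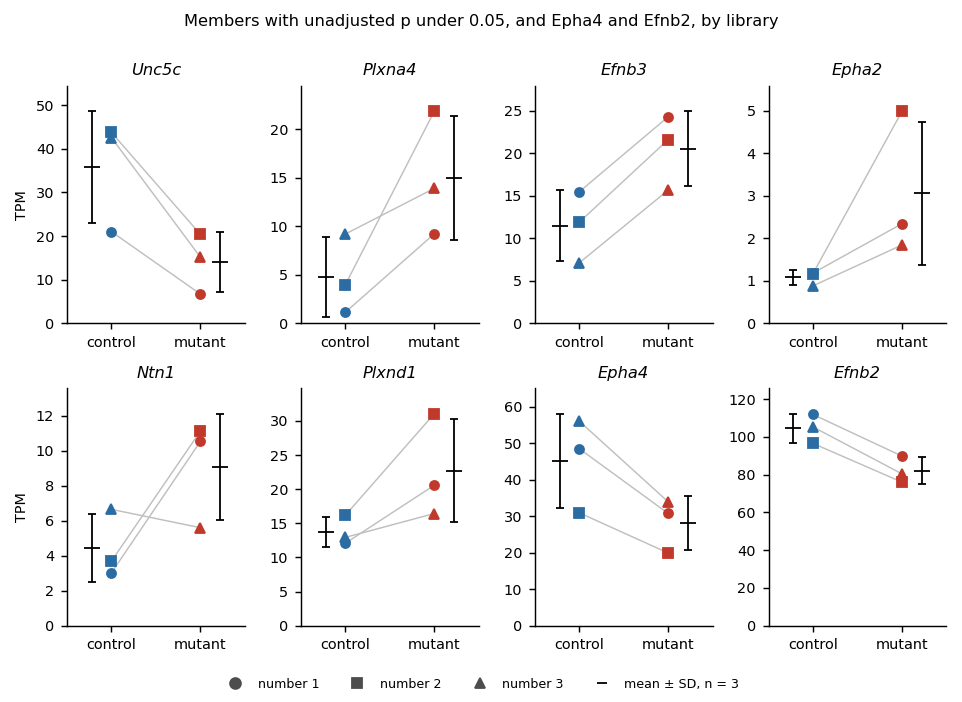
Expression (TPM, axes from 0) of Unc5c, Plxna4, Efnb3, Epha2, Ntn1, Plxnd1, Epha4 and Efnb2 in each control (blue) and mutant (red), with a grey line joining libraries of the same number and black bars for the mean ± SD (n = 3). All 3 lines slope down for Unc5c, Epha4 and Efnb2, all 3 slope up for Plxna4, Efnb3, Epha2 and Plxnd1, and the line of number 3 slopes down for Ntn1, from 6.65 to 5.60 TPM.

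All 15 tested semaphorins had a log2 fold change above 0, with a median of 0.33, against 69.8% of all genes above 0. None of them had an unadjusted p under 0.05 in limma, with or without the block. Of the semaphorins below the filter, Sema4f and Sema7a had lower means in the mutants, 0.307 against 0.593 TPM and 0.827 against 0.927 TPM. Sema3g, Sema4a and Sema6b had higher ones. With the 3 other scalings (median-of-ratios, quantile and rescaling without accession-named features) 12 of the 15 stayed above 0 with medians of 0.19 to 0.21, while 47.5% to 49.1% of all genes did. Without mutant 2 the number above 0 was also 12. In class 3, the secreted semaphorins, the most abundant was Sema3c, a cue for neural crest cells of the outflow tract, at 18.3, 24.0 and 28.4 TPM in the controls and 18.6, 37.3 and 38.6 TPM in the mutants. Mutants 2 and 3 lay above every control and mutant 1 among them. Sema3a, which repels neural crest and sensory axons through Nrp1, stood at 5.78 to 18.0 TPM in the controls and 9.92 to 16.3 TPM in the mutants. Sema3e, the ligand of Plxnd1, was low but did not overlap, at 0.30, 0.43 and 1.39 TPM in the controls and 1.65, 1.81 and 2.05 TPM in the mutants (log2 fold change 0.78 ± 0.34, limma unadjusted p = 0.0527). Its control mean of 0.707 TPM was below the filter of 1 TPM, and the mutant mean of 1.84 TPM carried it into the test.

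For each transmembrane semaphorin tested the groups overlapped. In class 4, Sema4b (6.75 to 12.3 TPM in the controls and 9.74 to 13.2 TPM in the mutants) and Sema4c (4.84 to 7.42 TPM and 5.47 to 11.6 TPM) were the highest and overlapped. In class 6, Sema6a stood at 50.5, 72.0 and 56.8 TPM in the controls and 45.3, 74.3 and 69.3 TPM in the mutants and Sema6d at 16.9, 29.4 and 31.3 TPM and 26.1, 37.6 and 32.6 TPM. The libraries numbered 1 were the lowest of their group for both. Sema6c, the class 6 member with the largest log2 fold change (0.37 ± 0.41), stood at 0.97 to 3.12 TPM and 1.73 to 4.36 TPM. Sema5a stood at 11.5, 22.5 and 17.1 TPM in the controls and 8.41, 33.1 and 24.9 TPM in the mutants. Sema5b was at 3.35 to 4.5 TPM in 5 libraries and at 18.9 TPM in mutant 2, the library with 70.9 TPM of neural tube markers, and without that library its log2 fold change went from 0.58 to -0.12. The part of neural tube RNA in the Sema5b value was not tested.

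Of 10 tested plexins and neuropilins, 8 had a log2 fold change above 0, and 5 with each of the other scalings. Plxna4 (chromosome 6, 32144268 to 32588192), a receptor for class 3 and class 6 semaphorins on sensory and sympathetic axons, had the largest difference of any member. It stood at 1.13, 3.97 and 9.20 TPM in the controls and 9.22, 21.9 and 13.9 TPM in the mutants. The groups just missed overlapping, between control 3 and mutant 1. The mean was 4.77 ± 4.09 and 15.0 ± 6.4 TPM, a 3.15-fold higher mean, with a log2 fold change of 1.67 ± 0.57 (limma unadjusted p = 0.0188, adjusted p = 0.999, 0.282 with the block). Its exons share 110 bases with Plxna4os3, an antisense gene. Leaving out 1 library gave log2 fold changes from 1.09, without control 1, to 2.22, without control 3. Plxna4 was highest in mutant 2, the library with 70.9 TPM of neural tube markers, and without that library its log2 fold change was 1.37. Neural crest markers stood at 79.0 to 116 TPM in the controls and 103 to 159 TPM in the mutants. Neuron markers stood at 17.0 to 22.2 TPM and 23.6 to 39.6 TPM. The part of these 3 marker sets in the Plxna4 level was not tested.

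Plxnd1, the endothelial receptor of Sema3e, and Nrp1, a co-receptor of class 3 semaphorins and of VEGF, were also higher in every mutant in the deposited TPM. With median-of-ratios scaling their log2 fold changes were smaller, 0.51 and 0.29. Plxnd1 (chromosome 6, 115954811 to 115995005) stood at 12.1, 16.2 and 12.9 TPM in the controls and 20.6, 31.1 and 16.4 TPM in the mutants, with mutant 2 the highest. The log2 fold change was 0.65 ± 0.27 (limma unadjusted p = 0.0463, adjusted p = 0.999), and 0.41 without mutant 2. Nrp1 stood at 21.7, 27.0 and 25.6 TPM in the controls and 32.2, 32.9 and 35.5 TPM in the mutants, a gap between the groups with a log2 fold change of 0.43 ± 0.19 (unadjusted p = 0.0552). Nrp2, known from lymphatic vessels and neural crest, was higher than Nrp1 in every library and overlapped between groups, at 83.4, 38.4 and 51.1 TPM and 82.3, 82.4 and 54.7 TPM. The endothelium markers were higher in the same mutants (241 to 345 TPM against 143 to 206 TPM), and their part in the levels of Plxnd1 and Nrp1 was not tested. Robo4, also an endothelial gene, overlapped between the groups, at 1.51, 4.51 and 2.67 TPM in the controls and 2.22, 6.13 and 3.07 TPM in the mutants. Each mutant lay above the control of its number. Plxnb1, a receptor for class 4 semaphorins, stood at 40.0, 35.4 and 39.3 TPM in the controls and 34.0, 30.4 and 33.4 TPM in the mutants, without overlap but with a small difference (log2 fold change -0.22 ± 0.18). The groups overlapped for the other plexins, with Plxna2 at 29.4 to 52.4 TPM in the controls and 31.1 to 51.6 TPM in the mutants and Plxnb2 at 26.0 to 39.5 TPM and 32.4 to 47.1 TPM.

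No Slit or Robo had an unadjusted p under 0.05 in limma. Of the 5 tested, 3 had a log2 fold change below 0, and 4 with each of the other scalings. Robo1, a receptor for Slits, stood at 50.2, 74.7 and 73.2 TPM in the controls and 46.9, 43.5 and 66.4 TPM in the mutants, with each mutant below the control of its number and the groups overlapping (log2 fold change -0.33 ± 0.25). Robo2 stood at 43.2, 44.2 and 45.4 TPM in the controls, a narrow range, and at 38.1, 25.0 and 50.7 TPM in the mutants, 2 of them below it and 1 above. Among the ligands, Slit3 had 14.9, 15.7 and 23.3 TPM in the controls and 8.62, 18.8 and 11.2 TPM in the mutants, overlapping groups (log2 fold change -0.49 ± 0.32). Slit2 had 13.4 to 15.0 TPM in the controls and 12.7, 24.0 and 12.2 TPM in the mutants, high in mutant 2 alone.

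Of the transmembrane ephrins, Efnb2 was lower and Efnb3 higher in every mutant. Efnb2 (chromosome 8, 8617434 to 8661242), an ephrin that marks arteries, stood at 112, 96.5 and 105 TPM in the controls and 89.8, 76.0 and 80.4 TPM in the mutants. Every mutant lay below every control, and the mutants had 0.803, 0.788 and 0.764 of the level of their same-numbered controls. The log2 fold change was small, -0.35 ± 0.18 (limma adjusted p = 0.999, 0.413 with the block). Efnb3 (chromosome 11, 69554092 to 69560205), best known as a midline barrier in the spinal cord, stood at 15.5, 11.9 and 7.10 TPM in the controls and 24.3, 21.6 and 15.7 TPM in the mutants. Every mutant lay above every control, and mutant 3 came close to control 1. The mean went from 11.5 ± 4.2 to 20.5 ± 4.4 TPM, 1.79-fold higher. Its log2 fold change was 0.82 ± 0.31 (limma unadjusted p = 0.0308, adjusted p = 0.999, 0.229 with the block). Efnb1 stood at 6.76 to 9.40 TPM and 8.11 to 10.6 TPM. Of the GPI-anchored ephrin A ligands, Efna4 stood at 85.5, 58.4 and 44.5 TPM in the controls and 53.8, 36.9 and 53.5 TPM in the mutants, and Efna5 at 32.4, 45.8 and 45.2 TPM and 39.9, 57.7 and 61.0 TPM, both with overlapping groups.

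Of the Eph receptors, Epha4 was lower and Epha2 higher in each mutant than in the control of its number. Epha4 (chromosome 1, 77367185 to 77515088), which binds both ephrin classes, stood at 48.5, 30.9 and 56.0 TPM in the controls and 30.7, 19.9 and 33.9 TPM in the mutants. The groups overlapped, yet the same-numbered ratios were close, 0.634, 0.644 and 0.606. Its log2 fold change was -0.65 ± 0.30 without the block (limma unadjusted p = 0.0607) and had an unadjusted p of 0.00145 and an adjusted p of 0.198 with it. Epha7, the most abundant Eph receptor, stood at 66.1, 77.7 and 64.7 TPM and 65.1, 53.5 and 96.4 TPM, with mutant 2 below and mutant 3 above every control. Among the EphB receptors, Ephb4, the venous partner of Efnb2, stood at 44.5, 70.8 and 51.9 TPM in the controls and 57.3, 75.2 and 51.0 TPM in the mutants, Ephb2 at 17.0 to 27.1 TPM and 23.1 to 24.5 TPM, and Ephb3 at 5.23 to 16.9 TPM and 9.03 to 18.6 TPM, all overlapping.

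Epha2 (chromosome 4, 141301240 to 141329384), an epithelial and endothelial Eph receptor, was low throughout, at 1.18, 1.17 and 0.88 TPM in the controls and 2.34, 4.98 and 1.84 TPM in the mutants. Every mutant was above every control and mutant 2 was the highest. The mean was 1.08 ± 0.17 and 3.05 ± 1.69 TPM, 2.84-fold higher, with a log2 fold change of 0.89 ± 0.36 (limma unadjusted p = 0.0371, adjusted p = 0.999), which understates the fold of a gene this low. Without mutant 2 it was 0.57.

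The stretches before the start sites of Epha2 and Plxnd1 are given because these receptors were higher in every mutant and their windows touch no annotated exon, and as examples of a feature common among the members, a GC box near the start. Each is the 250 bases upstream of the RefSeq start (GRCm38.p6) on the gene's own strand, outside all annotated exons, at chr4:141300971-141301220 on the plus strand for Epha2 and chr6:115995006-115995255 on the minus strand for Plxnd1. Capitals mark a GC box, GGGCGG or its reverse complement CCGCCC.
Epha2: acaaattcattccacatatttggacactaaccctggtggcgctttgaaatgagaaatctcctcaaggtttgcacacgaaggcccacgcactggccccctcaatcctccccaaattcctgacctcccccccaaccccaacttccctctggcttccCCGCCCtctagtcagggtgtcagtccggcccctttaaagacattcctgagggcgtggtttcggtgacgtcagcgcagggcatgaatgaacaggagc
Plxnd1: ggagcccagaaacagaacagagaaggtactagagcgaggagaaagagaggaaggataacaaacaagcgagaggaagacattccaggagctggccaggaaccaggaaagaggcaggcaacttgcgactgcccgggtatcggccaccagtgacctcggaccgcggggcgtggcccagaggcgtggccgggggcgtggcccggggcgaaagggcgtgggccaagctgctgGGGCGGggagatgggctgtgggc

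The box lies 96 bases before the start in Epha2 and 23 bases before it in Plxnd1. The window of Unc5c, not printed because it touches annotated exons, holds 0 GC boxes. Windows of this kind were found for 60 of the 71 members, 76 in all. A GC box on either strand was in 71.1% of them, against 32.7% of all 32851 windows and 42.6% of the 21262 windows of protein-coding genes. Their median GC content was 64.4%, against 52.4% of all windows and 55.6% of protein-coding ones. The letters TATAAA or their reverse complement were in 2.63% of the members' windows (those of Efnb2 and Slit2) and in 12.4% of all windows. The 9-letter GLI binding consensus GACCACCCA was in 0 of 76 member windows and 0.225% of all windows on either strand. Its last 7 letters, CCACCCA, were in 9.21% of the members' windows (Plxna2, Robo2, Sema3c, Sema3g, Sema4a, Sema5a and Sema6c) and 8.11% of all. Of these, Sema3g and Sema4a were not tested, and none of the other 5 had an unadjusted p under 0.05 in limma. A match in letters is no binding site, and the windows hold no distant enhancers.

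**Figure D4:**
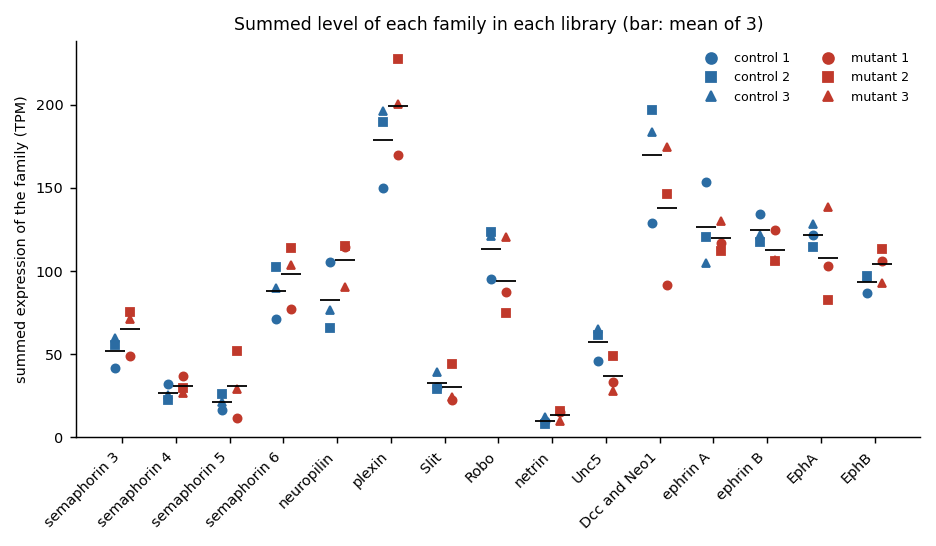
Summed expression (TPM, axis from 0) of each family in each library, controls in blue and mutants in red, with a marker shape for each library number and a bar for the mean of 3. The Unc5 sum goes from a mean of 57.5 to 36.6 TPM, and mutant 2 stands out at 52.0 TPM in semaphorin class 5.

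The sums by family showed the same small shifts. The mean sum in mutants relative to controls was lowest for Unc5 (0.637), Dcc and Neo1 (0.81) and Robo (0.831) and highest for semaphorin class 5 (1.466), netrins (1.378), neuropilins (1.294) and semaphorin class 3 (1.253). The class 5 ratio rests on mutant 2, at 52.0 TPM against 11.8 and 28.8 TPM in the other mutants. By group mean the plexin sum was the largest of these family sums, at 150 to 196 TPM in the controls and 170 to 228 TPM in the mutants. Within it no gene took more than a mean of 23.5%, while Efnb2 made up 78.8% of the ephrin B sum and Neo1 99.5% of the Dcc and Neo1 sum.

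Co-factors and intracellular effectors of these pathways, with other guidance cues, were followed in 5 lists. They held 107 genes counted once, of which 96 were tested, and their median log2 fold change was 0.13, beside 0.11 for all genes. In limma 0 were called and 9 had an unadjusted p under 0.05 (3 lower and 6 higher, 9.38% beside 4.09% of all genes), and with the replicate block 3 were called lower (Dpysl3, Ntng1 and Gdnf) and 1 higher (Flrt2), beside 0.11% lower and 0.0959% higher of all genes. Dpysl3, a collapsin response mediator that carries semaphorin signals to the cytoskeleton, stood at 111, 104 and 100.4 TPM in the controls and 36.9, 39.9 and 48.3 TPM in the mutants. The groups lay far apart, with a mean of 105 ± 6 and 41.7 ± 5.9 TPM and a difference of -1.32 ± 0.19 on the log2 scale (limma adjusted p = 0.131, 0.0574 with the block). Gdnf, which attracts Ret-bearing enteric neural crest cells, stood at 13.1, 13.5 and 9.49 TPM in the controls and 0.41, 2.31 and 0.52 TPM in the mutants (log2 fold change -2.74 ± 0.38, adjusted p = 0.131, 0.0618 with the block). Every mutant was below every control for both. The part of the lower sum of splanchnic mesoderm markers in these levels was not tested.

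Among the netrin-related partners, Ntng1 and Flrt2 were called with the block. Ntng1, a netrin-like protein anchored to the membrane, stood at 6.72, 22.6 and 25.3 TPM in the controls and 1.92, 6.75 and 7.42 TPM in the mutants. The groups overlapped, since control 1 was low as well, but the mutants had 0.286, 0.299 and 0.293 of the level of their controls. The log2 fold change of -1.55 ± 0.57 had a limma adjusted p of 0.999, and 0.0679 with the block. Flrt2, a ligand of Unc5 receptors that repels axons, stood at 67.4, 115.4 and 83.3 TPM in the controls and 135, 272 and 222 TPM in the mutants, every mutant above every control. Its mean was 88.7 ± 24.4 and 210 ± 70 TPM and the difference 1.21 ± 0.32 on the log2 scale (limma adjusted p = 0.753, 0.057 with the block). The receptor Unc5c was lower in each mutant than in its same-numbered control, and this ligand of its family higher. A relation between the 2 was not tested, and bulk RNA does not show whether neighbouring cells hold them.

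Among the other partners with an unadjusted p under 0.05 all were higher in mutants. The chemokine Cxcl12 stood at 58.8, 125 and 116 TPM in the controls and 185, 182 and 156 TPM in the mutants, and Dab1, the reelin adaptor, at 2.42 to 3.00 TPM and 4.26 to 6.32 TPM. The plexin-binding GTPase Rnd3 stood at 48.8 to 75.7 TPM and 81.6 to 116 TPM, the plexin effector Mical2 at 3.45 to 5.39 TPM and 6.16 to 9.01 TPM, and the actin regulator Cap2 at 9.35 to 13.7 TPM and 18.0 to 26.4 TPM. The groups did not overlap for any of these 5 genes, and none was called (limma adjusted p of 0.756 to 0.999). The part of the higher mesothelium, endothelium and somite markers in these levels and in that of Flrt2 was not tested. Over the 96 tested partners the groups did not overlap for 12 (12.5%, beside 8.36% of all genes). The Eph-ephrin list had 0 of 21 tested genes with a limma unadjusted p under 0.05 without the block, beside 4.09% of all genes. With the block it had 2 (9.52%, beside 9.79% of all genes). By contrast all 7 genes of the HH response list were lower in every mutant, 6 of them with an unadjusted p under 0.05.

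**Figure D5:**
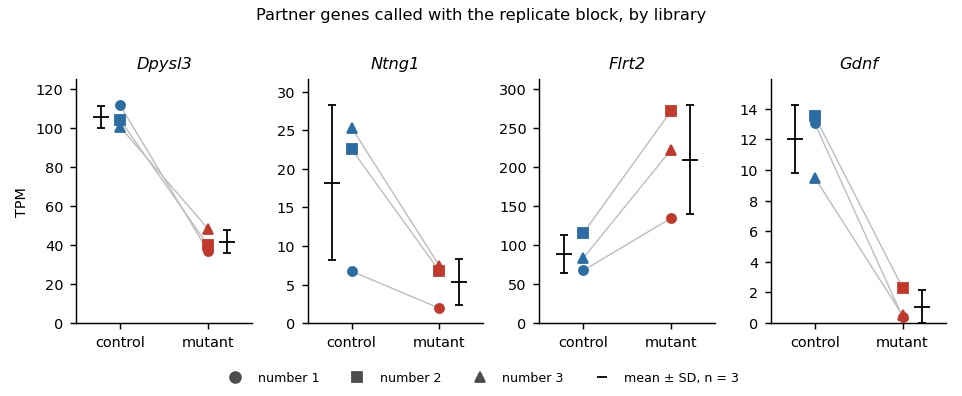
Expression (TPM, axes from 0) of the partner genes Dpysl3, Ntng1, Flrt2 and Gdnf in each control (blue) and mutant (red), with a grey line joining libraries of the same number and black bars for the mean ± SD (n = 3). Flrt2 slopes up along all 3 lines and the other 3 genes slope down, Ntng1 from 6.72 to 1.92 TPM in number 1, whose control lies below mutant 3.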

How the data were processed

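Per the labels, the authors amplified polyadenylated RNA of single foreguts with a SMART-Seq v4 low input kit and built Nextera XT libraries, which carry no strand information. Reads were aligned to mm10 inside the CSBB pipeline, whose aligner, quantifier and annotation are not named in the labels or methods. The deposited table holds TPM, from which read depth cannot be recovered, so precision rests on the spread among embryos.

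Genotype labels defined the groups. The 14606 genes averaging 1 TPM or more were compared on log2(TPM + 1) with limma 3.58.1 (R 4.3.3, mean-variance trend, two-sided, Benjamini-Hochberg over all of them). The RUVSeq test named in the study needs counts and was not run. Genes were called when the adjusted p was no higher than 0.1 and the log2 fold change reached 1 in size. On this scale the fold of a low gene is understated. The fit was tested on simulated data.

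The members, the lists of partners and markers, and the rule for naming genes (calls, unadjusted p under 0.05, and in each family the most abundant and most different members) were chosen with earlier results of these data known.

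Both groups carry replicate numbers 1, 2 and 3. Between the libraries of a number, deviations from their group means correlated at 0.668, 0.37 and 0.148. Each is above 0.1, and the number was therefore also fitted as a block. This pairing rests on the correlations, since no label says what a number stands for and the sample titles begin alike only for number 1. Control 3 correlated better with mutant 2 (0.245) and mutant 3 with control 2 (0.243) than these 2 libraries did with each other. The correlations therefore do not single out number 3 as a pair. Other pseudocounts, filters and scalings, somite number, 1 factor of unwanted variation, array weights, robust shrinkage and the removal of each library were tried as alternatives. Coordinates and exon overlaps came from GENCODE M21 and promoter windows from RefSeq.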

Additional observations from a re-analysis of the deposited data

How the results depend on the processing

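The values rest on 6 embryos and on TPM, so no counting error could be given and no count model run. Over up to 22 alternatives a gene, 951 of 1051 values of named genes kept their direction and side of the limit, 10 were weaker, 43 stronger and 47 reversed. The block, the unwanted factor, robust shrinkage and other filters could not change the log2 fold change of a tested gene. Genes with an adjusted p near 1 were also unlikely to cross the limit. The 951 is therefore no measure of robustness. The reversals fell in 11 genes, none of them called with or without the block. Among the genes named, the replicate block changed the calls of Unc5c and of the partners Dpysl3, Ntng1, Gdnf and Flrt2, and of the HH response list it called 3 where the fit without it called 1. The causes were not tested.

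Members called lower numbered 1 with the replicate block and 1 with a factor of unwanted variation. Members with an unadjusted p under 0.05 numbered 2 lower with no filter, 3 lower and 1 higher with median-of-ratios, quantile and accession-free scaling, 4 lower with the replicate block and with the unwanted factor, and 3 lower with somite number or array weights. Leaving out 1 library gave 0 to 2 lower and 0 to 5 higher. The share of all genes at p under 0.05 was counted only for the fits of all libraries with and without the block. Partners called lower numbered 1 with a pseudocount of 5, quantile or accession-free scaling or array weights, 0 to 1 leaving out 1 library, 2 (and 1 higher) with somite number, and 3 (and 1 higher) with the block or the unwanted factor. The members' median log2 fold change was 0.013 with median-of-ratios and 0.0069 with accession-free scaling, and 0.029 to 0.18 leaving out 1 library.

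Alternatives chosen after seeing the data included leaving out both libraries of a number. Without those numbered 1, 3 members were higher at p under 0.05, and with the block 2 were lower. With the block and without number 2, 3 were lower and 3 higher. With the block and without number 3, members called were 1 lower and 2 higher, those with p under 0.05 were 7 lower and 9 higher, and partners called were 3 lower and 5 higher. That fit also called 133 lower and 303 higher of all 14559 genes it tested, so a rise in calls was general to the table.

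Reversed log2 fold changes were, with median-of-ratios scaling, -0.13 for Epha7, -0.12 for Plxna2, -0.081 for Sema6a and -0.017 for Slit2. With quantile scaling they were -0.089, -0.087, -0.038 and -0.018 for these genes in that order. With accession-free scaling they were -0.15, -0.13, -0.092 and -0.028 for these genes and -0.010 for Ephb4. With array weights they were -0.026 for Epha7 and 0.0062 for Ntn3. Without both libraries numbered 1, with or without the block, they were 0.085 for Ntn3, -0.012 for Plxna2 and -0.060 for Sema3a. With the block they were -0.17 for Sema5b and -0.22 for Slit2 without number 2, and -0.28 for Epha7, -0.054 for Sema6a and 0.33 for Unc5b without number 3. Leaving out 1 library in turn, they ranged from -0.23 to 0.19 for Epha7, -0.023 to 0.74 for Ephb3, -0.017 to 0.32 for Ephb4, -0.10 to 0.15 for Ntn3, -0.25 to 0.25 for Plxna2, -0.26 to 0.48 for Sema3a, -0.16 to 0.77 for Sema5a, -0.12 to 0.98 for Sema5b, -0.076 to 0.28 for Sema6a, -0.18 to 0.28 for Slit2 and -0.235 to 0.30 for Unc5b.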
